A study of Mus musculus with 6 samples.

Results

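Oocyte factors and zona proteins are represented here by 10 genes of 22487 in the deposited table of rat ovary expression: Gdf9, Bmp15, Zp1, Zp2, Zp3, Figla, Nobox, Ddx4, Kit and Kitlg. They were chosen by gene name, and each name matched 1 row. The study compared 3 control libraries of ovary, wild type (WT) by label and with no treatment, with 3 ovary libraries, also WT, after exposure to cowshed PM2.5 (fine airborne particulate matter). Both groups carry 30 days in their titles, while route, dose and age in days or weeks were not found in the labels. The series describes the animals as adult females. The organism label names the mouse, whereas the titles and all gene identifiers are of the rat. Whether each library is a different animal is not stated, so the p-values below reflect variation among these 6 samples, which may be technical in part.

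Library totals lay between 47662338 and 60749578 counts, with 19258 to 19841 genes detected. Values below are FPKM as deposited (fragments scaled to transcript length and library size, so that different genes can be compared) or CPM (counts scaled to library size). The RNA came from ovary tissue, in which fewer oocytes and less RNA per oocyte cannot be told apart.

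An oocyte grows inside a follicle of granulosa cells and directs them by secreting GDF9 and BMP15, relatives of TGF-beta. It also builds the zona pellucida, a coat of ZP glycoproteins that binds sperm and blocks polyspermy. The transcription factors FIGLA and NOBOX switch on the oocyte program, FIGLA through short sites called E-boxes (CANNTG) in zona gene promoters, and NOBOX through homeodomain sites such as TAATTA. In the other direction, granulosa cells make KIT ligand (Kitlg), which acts on the receptor KIT of the oocyte and supports its survival and growth. DDX4 is an RNA helicase found in germ cells throughout life.

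To show what such control regions look like, the 250 bases before the start site of 2 members are printed from RefSeq's mouse assembly GRCm38.p6, since 6 of the 10 members had a window there and the sequence of the rat was not used here. Zp3 was chosen as a zona gene and Bmp15 as a secreted factor. Capitals mark E-boxes in Zp3, and E-boxes and TAATTA in Bmp15, all searched on both strands.
Zp3 (mouse, chr5:135979855-135980104, plus strand): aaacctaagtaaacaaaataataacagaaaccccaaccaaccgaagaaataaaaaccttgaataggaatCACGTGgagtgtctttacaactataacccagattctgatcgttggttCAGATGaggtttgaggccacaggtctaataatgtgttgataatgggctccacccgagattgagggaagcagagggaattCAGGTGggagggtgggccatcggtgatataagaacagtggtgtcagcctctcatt
Bmp15 (mouse, chrX:6320725-6320974, minus strand): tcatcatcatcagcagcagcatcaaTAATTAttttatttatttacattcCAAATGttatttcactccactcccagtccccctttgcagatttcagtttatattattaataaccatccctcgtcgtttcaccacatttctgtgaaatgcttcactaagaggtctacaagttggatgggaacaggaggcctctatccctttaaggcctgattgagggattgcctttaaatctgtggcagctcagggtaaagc

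The Zp3 window held 3 E-boxes, starting 181, 134 and 55 bases before the start site, the first of them with the letters CACGTG. The Bmp15 window held 1 E-box and 1 TAATTA, and no TAATTG. An E-box of any kind occurred in 66.2% of 32851 mouse promoter windows of this length, CACGTG in 6.02%, TAATTA in 4.84% and TAATTG in 7.17%. These matches describe letters in the mouse genome and say nothing of binding in these rats.

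All 10 genes were expressed highly enough to be tested, the minimum being an average of 0.5 FPKM. Ddx4 lay just above that limit at 0.507 and reached it only through PM2.5, averaging 0.350 FPKM in controls and 0.664 FPKM in PM2.5. By deposited FPKM the zona genes Zp2 (mean 19.9 over 6 libraries) and Zp3 (17.3) stood highest, followed by Gdf9 (12.0). Zp2 exceeded Zp3, Zp3 exceeded Gdf9, and Gdf9 exceeded Zp1 in all 6 libraries. Zp1 (4.04) and Kitlg (4.0) came next and did not differ beyond their spread, with Zp1 the higher in 4 libraries. Kit (2.55) and Bmp15 (1.96) were each the higher in 3 libraries. Figla (0.935), Nobox (0.771) and Ddx4 (0.507) were lowest, and their order changed from library to library.

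By edgeR's quasi-likelihood test at an adjusted p of 0.05, none of the 10 genes passed between PM2.5 and control, against 142 of 15303 genes, or 0.928%, in the whole table. Without adjustment 2 of the 10 had p below 0.05, Bmp15 on the higher side and Kitlg on the lower, a share close to the 20.9% of all genes. Bmp15 was the 1 member with every PM2.5 library above every control, as were 12.1% of all genes, and Kitlg was the 1 member with every PM2.5 library below, as were 15.2%. DESeq2 called 1 member, Kitlg, and 11.5% of all genes, and limma on log2(FPKM + 1) called none. The median log2 fold change of the 10 was 0.40, beside 0.00409 for all genes tested.

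**Figure D1:**
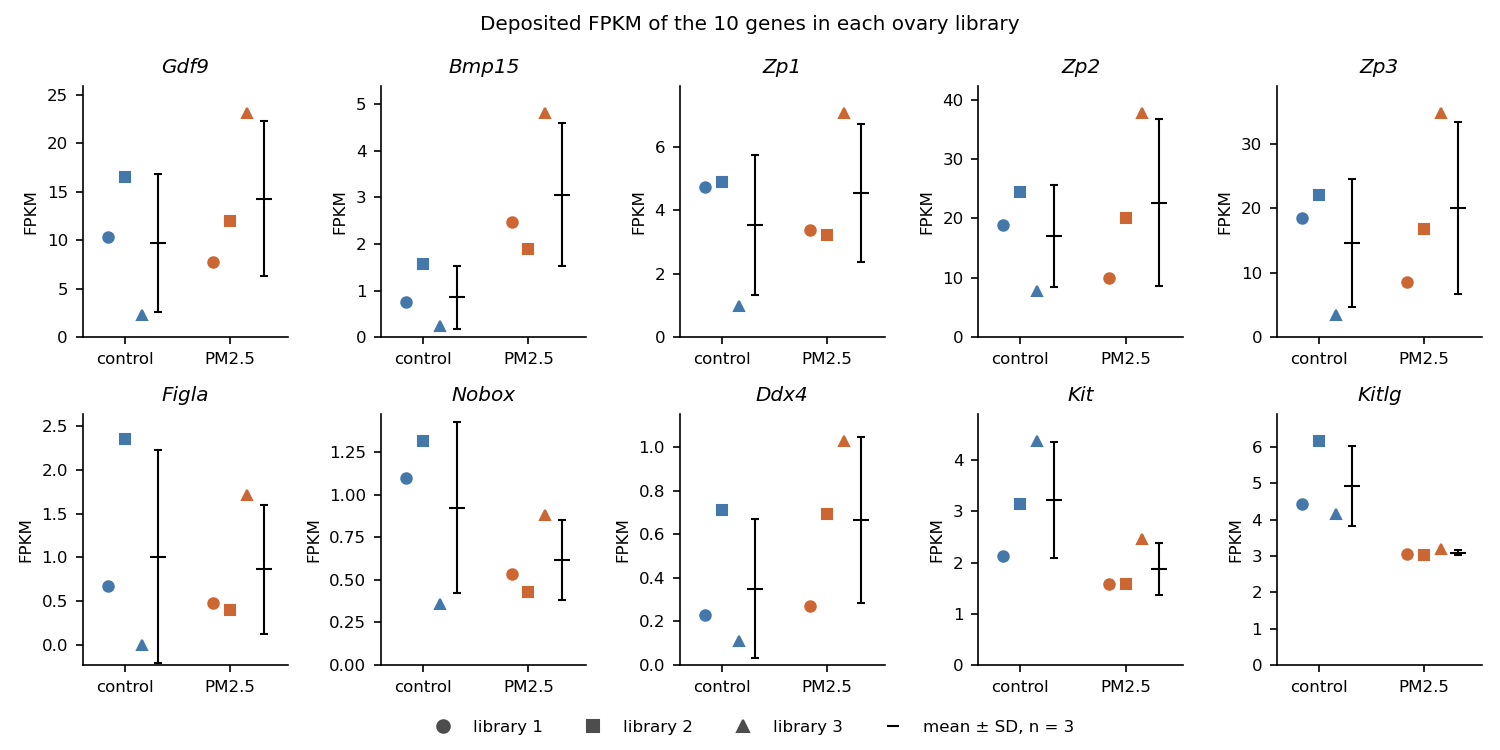
Deposited FPKM (linear vertical axes, 1 panel per gene) in 3 control and 3 PM2.5 libraries. Each point is 1 library and the bar is the mean ± SD. Control library 3 was lowest for the 8 genes from Gdf9 to Ddx4, while all 3 PM2.5 libraries were above the controls for Bmp15 and below them for Kitlg.

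Among the secreted factors, Gdf9 (ENSRNOG00000007301, chromosome 10, 37595679 to 37599672, plus strand), which drives granulosa cell growth and cumulus expansion, had 10.3, 16.5 and 2.34 FPKM in controls 1 to 3. In PM2.5 libraries 1 to 3 it had 7.71, 12.0 and 23.1 FPKM. The groups overlapped, and controls alone spanned a 6.54-fold range in CPM. Its log2 fold change was 0.57 ± 0.68 (SE), with a 95% interval from -1.04 to 2.19 and an edgeR adjusted p of 0.665. Leaving out 1 library moved it to 0.0433 (PM2.5 library 3), 0.12 (control 3), 0.87 (PM2.5 library 1) or 1.16 (control 2).

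Bmp15 (ENSRNOG00000002984, chromosome X, 16169123 to 16174187, plus strand), the partner of GDF9 on granulosa cells, had 0.755, 1.58 and 0.235 FPKM in the 3 controls and 2.47, 1.9 and 4.81 FPKM in PM2.5 libraries 1 to 3. Every PM2.5 library was above every control, but the nearest values, 1.58 and 1.9, lay close together. These values rest on 59, 125 and 20 counts in the controls and 208, 185 and 383 counts in PM2.5. The means were 0.855 ± 0.676 and 3.06 ± 1.54 FPKM (SD, n = 3 in each group). The log2 fold change was 1.85 ± 0.70 (95% interval 0.18 to 3.52), with an edgeR adjusted p of 0.207, so Bmp15 did not pass. Its adjusted p ranged from 0.0762 to 0.499 over the 16 alternative settings.

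The zona genes behaved much as Gdf9 did. Zp1 (ENSRNOG00000020907, chromosome 1, 207560881 to 207567261, minus strand), which cross-links zona filaments, had 4.74, 4.88 and 0.993 FPKM in controls and 3.37, 3.21 and 7.06 FPKM in PM2.5. Zp2 (ENSRNOG00000057989, chromosome 1, 174513511 to 174525288, minus strand), a structural protein cleaved after fertilization, had 18.9, 24.5 and 7.73 FPKM in controls and 10.1, 20.1 and 37.8 FPKM in PM2.5. Zp3 (ENSRNOG00000001434, chromosome 12, 20690547 to 20697513, minus strand), the zona protein first studied as a sperm receptor, had 18.5, 22.0 and 3.37 FPKM in controls and 8.61, 16.7 and 34.8 FPKM in PM2.5. For each of the 3, control 3 was lowest, PM2.5 library 3 highest, and the groups overlapped. Log2 fold changes were 0.38 ± 0.61 for Zp1, 0.42 ± 0.55 for Zp2 and 0.47 ± 0.72 for Zp3, each smaller than its SE, with edgeR adjusted p from 0.695 to 0.760. The direction itself was not stable: without PM2.5 library 3 these values were -0.09, -0.16 and -0.19, and without control 3 that of Zp1 was -0.05.

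The makeup of the zona message was steadier than its amount. Zp2 contributed 44.9, 47.7 and 63.9% of the summed Zp1, Zp2 and Zp3 FPKM in the controls and 45.6, 50.2 and 47.5% in PM2.5. Zp3 contributed 43.8, 42.8 and 27.8% in controls and 39.1, 41.8 and 43.7% in PM2.5. Control 3 stood apart, with more Zp2 and less Zp3 than any other library, and it was also the library with least zona message (952 counts of Zp2 and 256 of Zp3). The share of Zp1 was 9.65 ± 1.52% in controls and 10.7 ± 3.99% in PM2.5. The log2 ratio of Zp2 to Zp3 differed by -0.26 between groups and that of Zp1 to Zp3 by -0.04 (exact permutation test, two-sided p = 0.9 for each, where 3 against 3 cannot go below 0.10).

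Of the transcription factors, Figla (ENSRNOG00000015877, chromosome 4, 118432765 to 118436690, plus strand) had 22, 77 and 0 counts in the controls and 17, 17 and 56 counts under PM2.5. At the depth of control 3, a count of 0 allows up to 0.0606 CPM (3 counts, counting error only). The next lowest library had 0.280 CPM and the highest, control 2, had 1.51 CPM. The groups overlapped, and the log2 fold change of -0.19 ± 1.31 had a 95% interval from -3.30 to 2.93 and an edgeR adjusted p of 0.952, too wide to give a direction.

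Nobox (ENSRNOG00000025720, chromosome 4, 72128931 to 72134436, minus strand) had 1.1, 1.32 and 0.359 FPKM in controls and 0.537, 0.429 and 0.882 FPKM in PM2.5. Controls 1 and 2 were above all PM2.5 libraries and control 3 was below them. The log2 fold change was -0.58 ± 0.57 (95% interval -1.93 to 0.78, edgeR adjusted p = 0.596). It stayed negative in all 15 alternative settings in which Nobox was tested, from -1.29 to -0.23, and passed in none. It was -0.26 without control 2, -0.37 without PM2.5 library 2, -0.94 without control 3 and -0.92 without PM2.5 library 3.

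Ddx4 (ENSRNOG00000026686, chromosome 2, 44227946 to 44282723, minus strand) had 0.230, 0.713 and 0.108 FPKM in controls and 0.271, 0.693 and 1.03 FPKM in PM2.5, on 19 to 175 counts a library. Controls 1 and 3 were lowest and PM2.5 library 3 highest, with the groups overlapping. Its log2 fold change was 0.94 ± 0.78 (95% interval -0.91 to 2.80, edgeR adjusted p = 0.521), and 0.53 without control 3.

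The ligand and receptor pair Kitlg and Kit did not follow the other 8. Kitlg (ENSRNOG00000005386, chromosome 7, 34896053 to 34977214, plus strand) had 4.42, 6.17 and 4.15 FPKM in controls and 3.05, 3.04 and 3.18 FPKM in PM2.5. All PM2.5 libraries were below all controls and lay within 1.04-fold of each other in CPM, the narrowest range of the 10 genes in PM2.5. The mean was 4.91 ± 1.1 FPKM in controls and 3.09 ± 0.0775 FPKM in PM2.5 (SD, n = 3 in each group). The log2 fold change was -0.67 ± 0.19 (95% interval -1.11 to -0.23), with an edgeR adjusted p of 0.131, so Kitlg did not pass. DESeq2 gave an adjusted p of 0.0284, and over the 16 alternatives the adjusted p ran from 0.0284 to 0.383.

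Kit (ENSRNOG00000002227, chromosome 14, 32548877 to 32624652, minus strand) had 2.14, 3.15 and 4.38 FPKM in controls and 1.59, 1.58 and 2.46 FPKM in PM2.5. PM2.5 library 3 lay between controls 1 and 2, so the groups overlapped, and control 3, the lowest library for the 8 germ-cell genes, was the highest for Kit. The log2 fold change was -0.79 ± 0.36 (95% interval -1.64 to 0.05, edgeR adjusted p = 0.262). Without control 3 it was -0.46, with an edgeR adjusted p of 0.569. Besides the oocyte, theca and interstitial cells and mast cells are known to make KIT. The mast cell proteases Cpa3 and Tpsab1 were at or near 0, with at most 0.0808 and 0.0978 CPM in any library. The proteases Tpsb2 and Cma1 reached at most 0.403 and 0.332 CPM. Ms4a2, a subunit of the mast cell IgE receptor that was under the testing minimum, had 2.03, 1.74 and 0.990 CPM in controls and 0.401, 0.988 and 0.806 CPM in PM2.5, lower without overlap. Hdc, another of the markers, was higher on average in PM2.5, with 0.962, 1.76 and 0.323 CPM in controls and 2.04, 1.94 and 1.51 CPM in PM2.5, overlapping. Summed over 8 mast cell markers, levels were 35.1 to 39.9 CPM in controls and 35.9 to 78.7 CPM in PM2.5, with Gata2 and Srgn, which other cells also make, the largest terms, and 3 of the 8 reached the testing minimum. The part of mast cells in the Kit values was not tested further. The log2 ratio of Kitlg to Kit was 0.65 ± 0.63 in controls and 0.75 ± 0.33 in PM2.5 (exact permutation test, two-sided p = 1). That of Kit to Ddx4 was 3.57 ± 1.63 in controls and 1.67 ± 0.77 in PM2.5 (exact permutation test, two-sided p = 0.2, or 0.5 adjusted over the 5 ratios tested). The difference of -1.90 was -1.01 without control 3 and -2.62 without control 2.

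**Figure D2:**
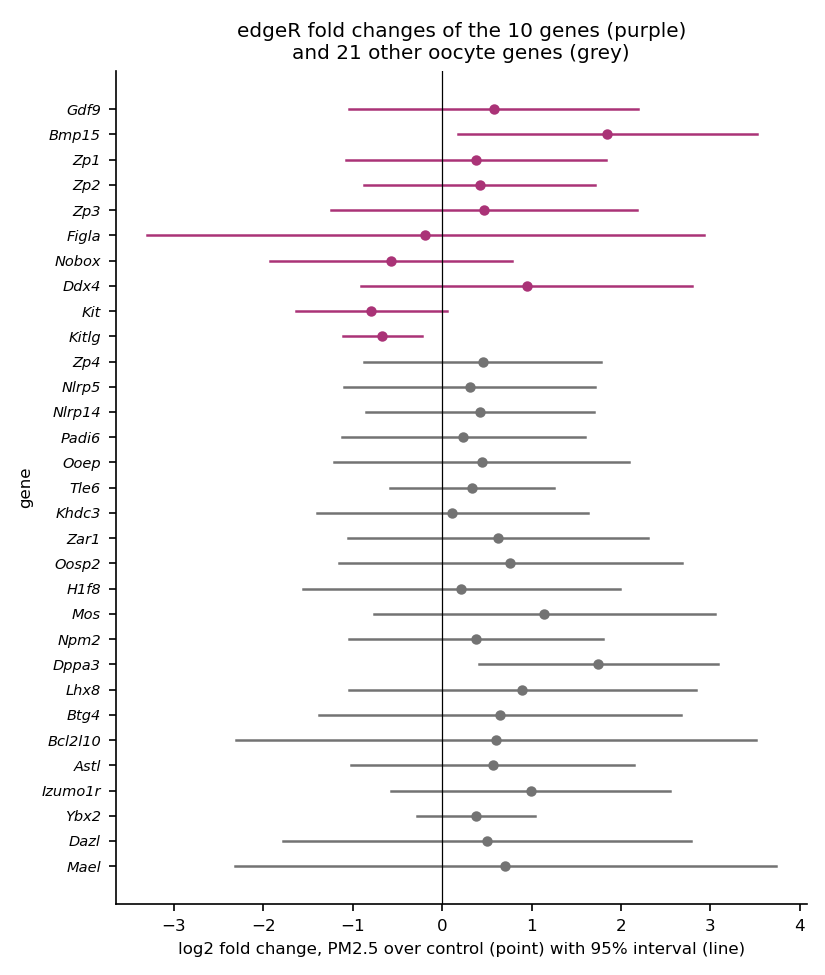
Log2 fold change of PM2.5 over control from edgeR (points) with 95% intervals (lines) for the 10 genes in purple and 21 other oocyte genes in grey. Intervals of Bmp15, Kitlg and Dppa3 leave out 0, but none of the 31 genes passed after adjustment over all genes.

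The largest differences among these genes were between single libraries. Control 3 was the lowest library for all 8 germ-cell genes (Gdf9, Bmp15, Zp1, Zp2, Zp3, Figla, Nobox and Ddx4), as it was for 25.7% of all genes tested. PM2.5 library 3 was the highest for 6 of the 8, all but Figla and Nobox, as it was for 20.8% of all genes. The summed CPM of the 8 was 104, 132 and 32.0 in the controls, against 62.4, 105 and 207 under PM2.5, in library order. Of the 8 genes 6 had a positive log2 fold change, with a median of 0.45 over the 8. The 6 include Ddx4, which reached the testing minimum only through PM2.5. Without control 3 and PM2.5 library 3 together, 1 of 7 tested was positive and the median was -0.52, so the direction rested on these libraries.

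A list of 28 further oocyte genes, chosen by function, showed the same order of libraries. Of these 27 were in the table and 21 were tested. Control 3 was lowest for 19 of the 21 and PM2.5 library 3 highest for 20. All 21 had positive log2 fold changes with a median of 0.50 (0.00409 for all genes). None passed in edgeR, DESeq2 or limma on log2(FPKM + 1), and 1 of 21 had an unadjusted edgeR p below 0.05, against 20.9% of all genes. The expression minimum bears on the count of positive genes. Dppa3, Izumo1r and Oosp2 averaged 0.460, 0.464 and 0.435 FPKM in controls and reached it only through PM2.5. Of the genes under it, Gpr3, Tbpl2, Sohlh2 and Sohlh1 had lower mean CPM in PM2.5, and Rfpl4a and Tdrd1 higher. Without control 3, 15 of 22 tested were positive with a median of 0.13, without PM2.5 library 3 it was 9 of 20 with a median of -0.05, and without both it was 4 of 21 with a median of -0.44.

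Of all genes tested, 12.1% were higher and 15.2% lower in PM2.5 without overlap of the groups. The 1 gene of the 21 whose groups did not overlap was Dppa3, a maternal factor that protects the methylation of the egg genome. It had 1.09, 0.704 and 0.626 CPM in controls and 1.24, 2.5 and 4.39 CPM in PM2.5, a log2 fold change of 1.75 ± 0.56 that did not pass (edgeR adjusted p = 0.159). Izumo1r, the egg receptor for sperm IZUMO1, had a log2 fold change of 0.99 ± 0.66, and Mos, the kinase that holds the egg in meiotic arrest, 1.14 ± 0.80. The other zona gene, Zp4, had 5.37, 7.78 and 2.61 CPM in controls and 3.38, 7.03 and 11.2 CPM in PM2.5, the order also seen for Zp2.

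**Figure D3:**
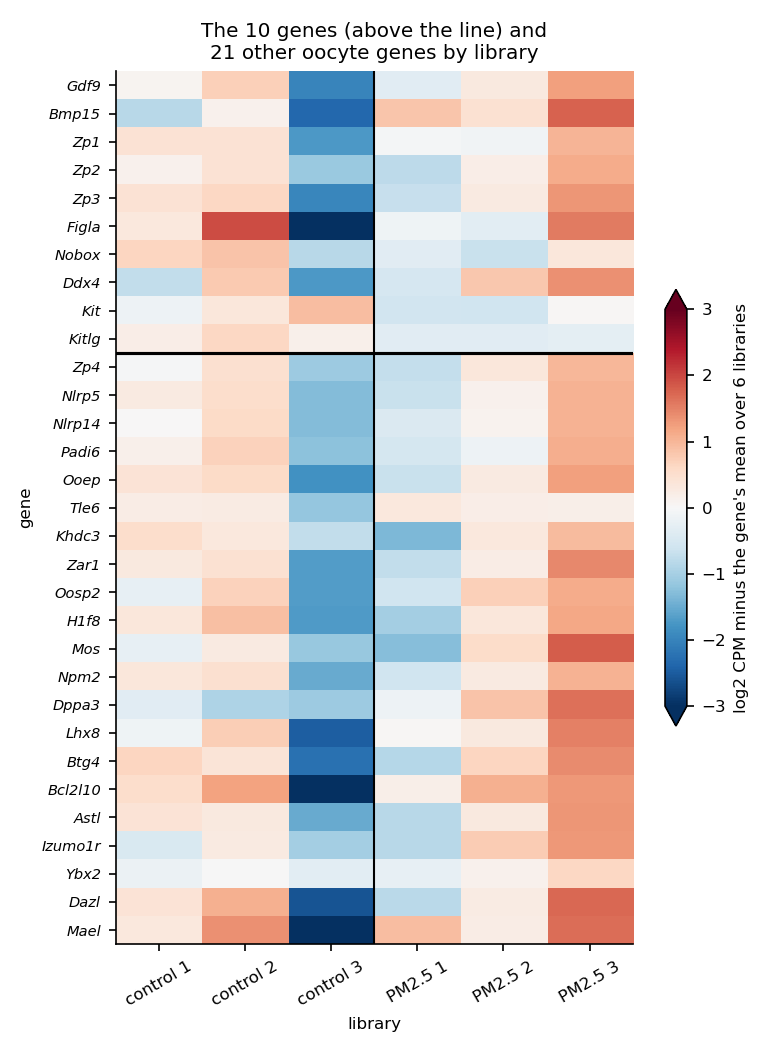
Log2 CPM of each gene minus its mean over the 6 libraries, with the 10 genes above the line and 21 other oocyte genes below it. Control 3 is blue and PM2.5 library 3 red in most rows, whereas Kit and Kitlg differ from the rest.

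Genes were ranked by how closely their centred log2 CPM followed the mean of the 8 germ-cell genes over the 6 libraries, measured as the root mean square difference in log2 units among 13762 named genes with at least 1 FPKM. Umodl1 was closest at 0.0779, followed by Nlrp9 at 0.143 and LOC100911002, described in the table as like a synaptonemal complex protein, at 0.165. Mnd1, Ccno, RGD1306186, Amh, Espn, AABR07070816.3 and Fbxw12 completed the closest 10, up to 0.209. Of the 8 genes themselves, Gdf9 was nearest to the mean at 0.0965 and Figla (0.823), Bmp15 (0.704) and Nobox (0.689) farthest. Amh, the anti-Müllerian hormone of granulosa cells, had 376, 586 and 113 CPM in controls and 233, 437 and 796 CPM in PM2.5.

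Markers of other cells moved between the same libraries. The summed CPM of 10 granulosa cell markers was 8863, 7258 and 2084 in the controls, against 4138, 10076 and 11666 under PM2.5. The summed CPM of 6 luteal cell markers was 6297, 5817 and 11400 in the controls, against 13210, 6334 and 5094 under PM2.5. Control 3 and PM2.5 library 1, the libraries with the lowest germ-cell sums, thus had the lowest granulosa sums and the highest luteal sums, and PM2.5 library 3 had the reverse. The summed CPM of 8 theca and interstitial markers was 5458, 7024 and 11508 in controls, against 12282, 6354 and 3710 in PM2.5, an order like the luteal one. Inha was the largest term of the granulosa sums and Hsd3b1 of the luteal sums, and Star and Cyp11a1 were the largest terms of the theca and interstitial sums. Not every marker moved this way. Foxl2 stayed at 35.1 to 47.5 CPM, and Nr5a2 was highest in PM2.5 library 1. Lhcgr, which is on both the luteal and the theca list, was lowest in control 3, as were Ptch1, Gli1 and Hhip of the theca list. Cyp17a1, also of the theca list, had 78.9, 202 and 51.0 CPM in controls and 8.89, 48.3 and 56.3 CPM in PM2.5. The part of these cell types in the results on oocyte genes was not tested.

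Few single markers passed in edgeR. DESeq2, whose calls are given in brackets, called 11.5% of all genes. Of 10 granulosa markers none passed in edgeR (DESeq2 called Nr5a2), and Nr5a2, Hsd17b1 and Inha had log2 fold changes of 0.63 ± 0.17, 0.77 ± 0.69 and 0.62 ± 0.66. Of 8 theca and interstitial markers none passed in edgeR (DESeq2 called Insl3), with Insl3 at -0.55 ± 0.15, Cyp17a1 at -1.55 ± 0.75 and Ptch1 at 0.80 ± 0.40. Of 6 luteal markers none passed in either tool, with Parm1 at -0.37 ± 0.19, Prlr at -0.37 ± 0.42 and Scarb1 at 0.39 ± 0.49. Of 3 tested mast cell markers none passed in either tool, with Gata2 at 1.18 ± 0.48, Srgn at 0.26 ± 0.17 and Hdc at 0.85 ± 0.62. Unlike these lists, the red blood cell list had members that passed, with Hba-a1, Hbb and Alas2 higher in PM2.5 (3 of 4 tested, edgeR adjusted p from 0.0434 to 0.0463), against 0.928% of all genes. The summed level of the 6 in the table was 658 to 711 CPM in controls and 2565 to 4034 CPM in PM2.5. None of these 3 calls remained when any 1 library was left out or with the replicate block, where the median log2 fold change of the 4 was 2.22 to 2.48.

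The sums of adipocyte and epithelial markers were highest in PM2.5 libraries 1 and 2, which were not the libraries richest in germ-cell genes. Of 5 genes listed as oviduct epithelium markers, 3 were in the table, Pax8, Krt7 and Epcam, whereas Ovgp1 and Foxj1 had no row. The 3 summed to 20.4, 44.4 and 5.43 CPM in controls and 178, 211 and 41.6 CPM in PM2.5, and which epithelium they came from was not tested. None of the 3 passed in edgeR (DESeq2 called Pax8 and Epcam, against 11.5% of all genes), with log2 fold changes of 2.80 ± 0.86, 2.04 ± 0.89 and 2.84 ± 0.97. Of 3 tested adipocyte markers none passed in edgeR (DESeq2 called Adipoq), with Adipoq at 3.90 ± 0.93, Fabp4 at 0.80 ± 0.33 and Plin1 at -0.04 ± 0.70.

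**Figure D4:**
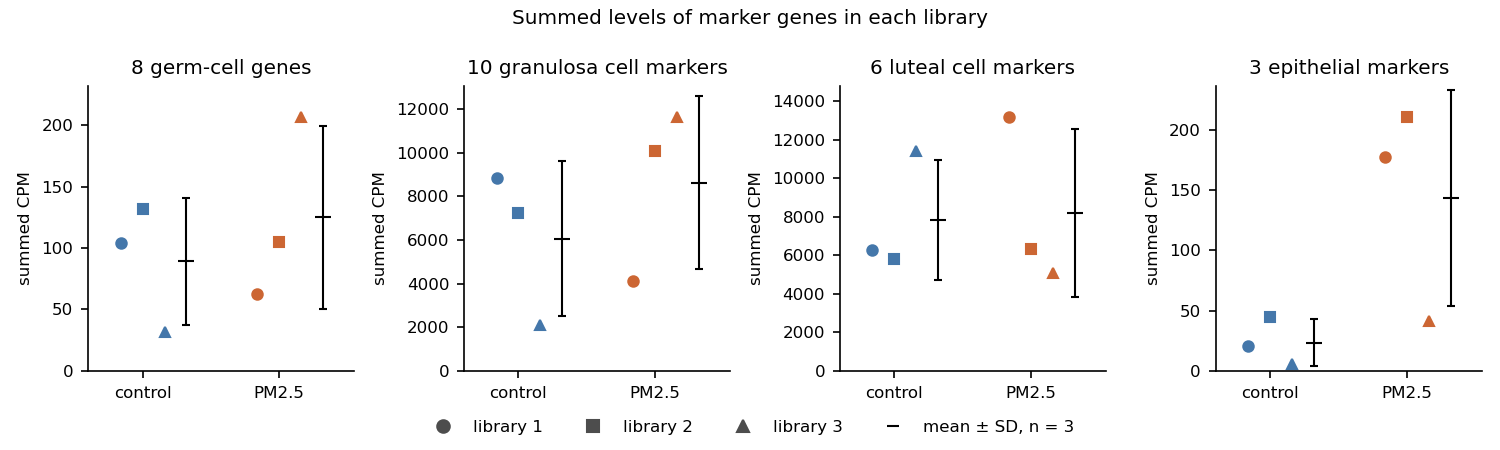
Summed CPM of 8 germ-cell genes, 10 granulosa cell markers, 6 luteal cell markers and 3 epithelial markers in each library (points), with mean ± SD. Germ-cell and granulosa sums are both lowest in control 3 and highest in PM2.5 library 3, and luteal sums are highest in control 3 and PM2.5 library 1.

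Since the amount of oocyte message differed so much between libraries, each gene was also set against Gdf9 in the same library. Bmp15 was 0.0730, 0.0953 and 0.10 of the Gdf9 FPKM in the controls and 0.321, 0.158 and 0.208 under PM2.5. The groups did not overlap, and controls lay within a narrow range. The difference was 1.30 on the log2 scale, or 2.47-fold, with group means of -3.49 ± 0.25 and -2.19 ± 0.52 (SD, n = 3 in each group, exact permutation test, two-sided p = 0.1, the smallest this design allows, and 0.5 adjusted over 5 ratios). Leaving out any 1 library gave differences from 1.03 to 1.54.

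Nobox lay on the other side of Gdf9, a ratio looked at after its values were seen and therefore not tested. It was 0.106, 0.0798 and 0.153 of the Gdf9 FPKM in controls and 0.0697, 0.0357 and 0.0381 under PM2.5, without overlap. Zp1, Zp3 and Ddx4 relative to Gdf9 overlapped between groups. Zp3 was 1.52 ± 0.238 of Gdf9 in controls and 1.34 ± 0.199 in PM2.5, Zp1 was 0.393 ± 0.0863 and 0.336 ± 0.0895, and Ddx4 was 0.0372 ± 0.0130 and 0.0457 ± 0.0113. Zp2 overlapped too and was highest in control 3, at 3.31 of Gdf9 against 1.30 to 1.83 in the other libraries.

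**Figure D5:**
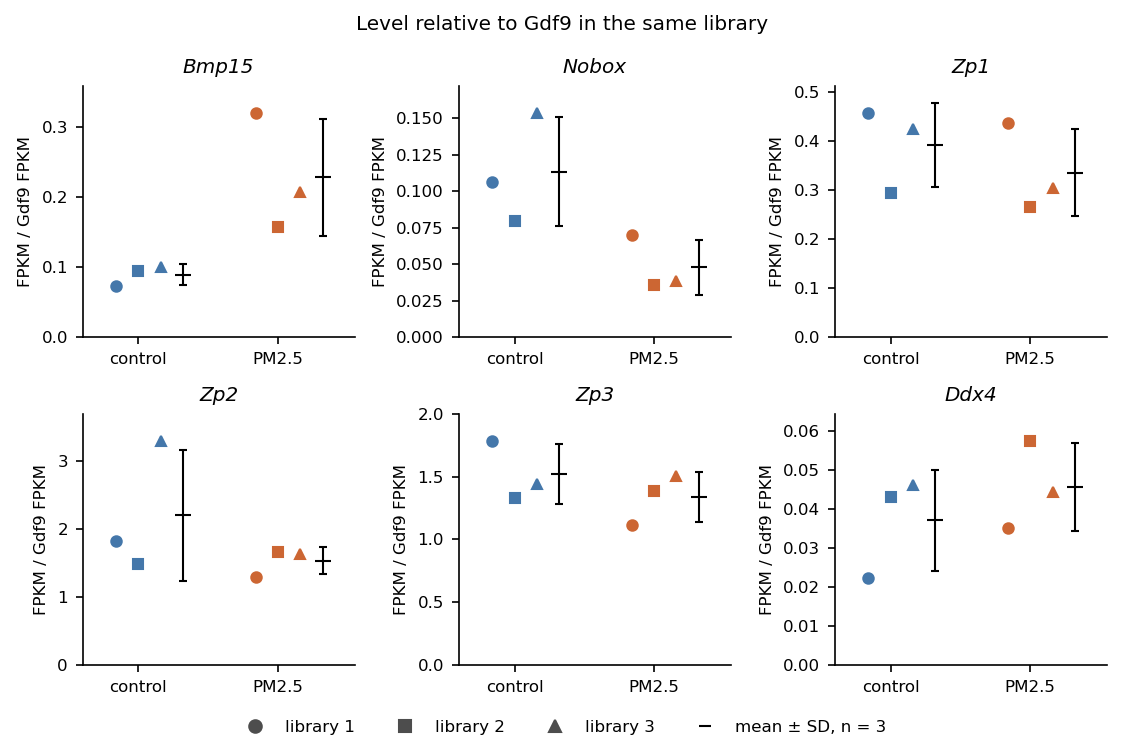
FPKM of 6 genes divided by the Gdf9 FPKM of the same library (linear axes from 0), with 1 point per library and the mean ± SD. Bmp15 ratios are higher in all PM2.5 libraries (0.158 to 0.321) than in controls (0.0730 to 0.10), Nobox ratios are lower, and the other 4 genes overlap.

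On the receiving side, GDF9 and BMP15 act through the type II receptor BMPR2 with TGFBR1 and BMPR1B, and pass the signal to SMAD proteins. Of 14 receptor, SMAD and related genes none passed in edgeR (10 above and 4 below the controls, median log2 fold change 0.22), and 5 had an unadjusted p below 0.05, against 20.9% of all genes. DESeq2 called 2 of the 14, Smad6 and Acvr1b, both higher, a share close to its 11.5% of all genes. Smad6, an inhibitory SMAD induced by BMP signals, had 19.5, 20.7 and 13.5 CPM in controls and 36.1, 27.9 and 49.0 CPM in PM2.5. Its groups did not overlap, and the log2 fold change was 1.07 ± 0.27 (edgeR adjusted p = 0.113).

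Acvr1b, an activin type I receptor, had a log2 fold change of 0.53 ± 0.14 and Smad7, another inhibitory SMAD, of 0.89 ± 0.31, and neither passed in edgeR. Chosen after values were seen because their groups did not overlap, Bmpr1b had a log2 fold change of 0.79 ± 0.33 and Smad1 of -0.38 ± 0.16. Bmpr1b had 32.4, 33.8 and 15.0 CPM in controls and 45.6, 37.5 and 57.4 CPM in PM2.5, so it too was lowest in control 3 and highest in PM2.5 library 3. Bmpr2 (log2 fold change 0.18 ± 0.22) and Tgfbr1 (-0.11 ± 0.21) lay near 0.

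Of 9 cumulus and granulosa genes that oocyte factors are known to regulate 6 were tested, and none passed in edgeR, DESeq2 or limma on log2(FPKM + 1). In edgeR 0 of the 6 had an unadjusted p below 0.05, against 20.9% of all genes. Ptx3, a matrix protein of the expanding cumulus, had 28.0, 55.7 and 21.1 CPM in controls and 40.9, 60.9 and 120 CPM in PM2.5 (log2 fold change 1.08 ± 0.49). Tnfaip6, which links hyaluronan in that matrix, had 2.47, 10.7 and 1.94 CPM in controls and 17.6, 27.9 and 4.57 CPM in PM2.5 (log2 fold change 1.73 ± 0.86). Sqle, a cholesterol synthesis enzyme, had a log2 fold change of -0.55 ± 0.45. The hyaluronan synthase Has2 and the BMP antagonist Grem1 were under the expression minimum and not tested. Grem1 had 2.72, 3.87 and 2.04 CPM in controls and 0.820, 0.527 and 0.342 CPM in PM2.5. Has2 had 1.53, 2.27 and 1.29 CPM in controls and 0, 0.840 and 1.01 CPM in PM2.5. Both were lower in every PM2.5 library than in every control, as were 15.2% of all genes tested, whereas the fold changes of Ptx3 and Tnfaip6 were positive with overlapping groups. With no expression minimum 1 of the 9 had an unadjusted p below 0.05, beside 3604 of 22487 genes in all, and none passed in edgeR.

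Below KIT, signals pass through PI3 kinase, AKT and mTOR. Of 15 such genes none passed in edgeR (7 above and 8 below, median log2 fold change -0.12), with 1 at an unadjusted p below 0.05, and DESeq2 called that 1, Rps6kb1 (against 20.9% and 11.5% of all genes). Rps6kb1, the S6 kinase below mTOR, had 69.4, 72.5 and 73.8 CPM in controls and 55.4, 44.9 and 46.3 CPM in PM2.5, without overlap (log2 fold change -0.56 ± 0.13, edgeR adjusted p = 0.107). Pik3ca, a catalytic subunit of PI3 kinase, had a log2 fold change of 0.30 ± 0.15, also without overlap. The groups of Mtor, at -0.12 ± 0.12, and Grb2, at -0.20 ± 0.14, did not overlap either.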

How the data were processed

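RNA from ovary was selected for poly(A), copied so that strand was marked with dUTP and sequenced in pairs, per the labels' protocols. Per the submitters' processing notes, HISAT2 2.2.1, cutadapt 1.9, edgeR, DESeq2 and StringTie 2.1.6 were used, with no role stated. The build of the genome, the annotation release and the strand setting are not stated, and coordinates are those of the deposited table. No member overlaps another gene of that table. The authors deposited whole-number counts and FPKM values per gene and library.

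Counts were tested with edgeR 4.0.16 in R 4.3.3 (TMM factors, glmQLFit and glmQLFTest, two-sided, Benjamini-Hochberg over the 15303 genes averaging 0.5 FPKM or more). The SE is the log2 fold change divided by the square root of F. CPM used TMM factors, and centred log2 CPM a prior count of 2. Alternatives used DESeq2 1.42.0, limma 3.58.1, other scalings, filters and pseudocounts, a replicate block and left-out libraries. The pipeline was tested on simulated counts. Libraries of a group differed by a chi-square of at least 117 per degree of freedom, more than counting noise alone gives, which does not show whether they come from different animals.

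The members and lists were chosen with earlier results of these data known. Genes named are the 10 members, the 3 tested genes with the smallest p and any that passed in each list, and the 10 closest in pattern, apart from 1 item that is not reported here. Others were chosen after their values were seen.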

Additional observations from a re-analysis of the deposited data

How the results depend on the processing

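With DESeq2 1 member, 2 receptor and SMAD genes and 1 KIT signalling gene changed, where edgeR called 0, and the cause was not tested. The 142 changed genes of the table became 8 when all genes were kept, 87 under the default expression filter of edgeR, 1767 with DESeq2 (731 higher and 1036 lower), 1 with the replicate block, 56 without control 3 and PM2.5 library 3 (45 higher and 11 lower, against 29 and 113 with all libraries), and 0 to 7 with 1 library left out, where fewer samples entered the test. None of the members changed in any of these settings except DESeq2. Of 153 alternative values for single members, 138 kept direction and call, 14 turned sign without being called in either setting, and 1, Kitlg in DESeq2, gained a call.

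Without PM2.5 library 3, Zp1 was at -0.0868, and without control 3 at -0.05. Without both libraries, the log2 fold change was -0.41 for Gdf9, -0.52 for Zp1, -0.49 for Zp2 and -0.64 for Zp3. With 1 library left out it ran from 0.0433 to 1.16 for Gdf9, from -1.03 to -0.46 for Kit, from -0.09 to 0.67 for Zp1, from -0.16 to 0.77 for Zp2, from -0.19 to 0.86 for Zp3 and from -1.11 to 1.32 for Figla. Figla was 0.000856 and 0.49 with limma pseudocounts of 1 and 0.1, and 0.19 with the replicate block. With 1 library left out, the difference in log2 ratio ran from -0.37 to 0.14 for Zp1 over Zp3, from -0.47 to 0.11 for Zp2 over Zp3, from -2.62 to -1.01 for Kit over Ddx4 and from -0.26 to 0.31 for Kitlg over Kit. The replicate block changed no member's call. The labels do not pair same-numbered libraries, whose deviations correlated at -0.177, 0.162 and 0.0932. Ddx4 fell under the minimum in 5 settings and was not tested there. With a minimum of 5 FPKM, 4 of the 10 genes closest in pattern were on the list of other oocyte genes, with a minimum of 1 FPKM 0 of 10. That list was fixed and left out Nlrp9, LOC100911002 and Mnd1, described as meiotic nuclear divisions 1, which were among the closest 10 at 1 FPKM. Figla, Nobox, Ddx4 and Bmp15 rest on fewer than 100 counts in some libraries, which limits their precision.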
